A study of Homo sapiens with 24 samples.

Results

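Metallothioneins are small, cysteine-rich proteins that bind zinc and copper and sequester cadmium. Their genes are switched on when free zinc rises: the zinc-sensing factor MTF1 then binds short metal response elements in their promoters, and glucocorticoids and oxidative stress raise several of them too. MT2A and the MT1 genes are used in many tissues, while MT3 is best known from brain, where it was described as a growth inhibitory factor of neurons. The 9 genes MT1A, MT1E, MT1F, MT1G, MT1H, MT1M, MT1X, MT2A and MT3 were followed here, out of 61551 genes counted. They were chosen by family name and by the level of 1 of them, MT1H, which had been seen to be higher in HAR123-KO than in hHAR123 hESCs. The values of that comparison, and of any comparison that shares its libraries, are therefore given as a description with no test.

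RNA was sequenced from H9 (WA09) cells, an established human embryonic stem cell line, of 4 genotypes at 2 stages with 3 libraries each, 24 in all. HAR123 is an enhancer within an intron of SMG6 that changed rapidly on the human lineage. The hHAR123 cells carry the human element unedited. HAR123-KO cells lack it on both alleles after CRISPR-Cas9 deletion, and in cHAR123 and mHAR123 cells the chimpanzee or mouse ortholog replaces it. The stages were undifferentiated hESCs in StemFlex medium and neuroectoderm after 5 days in KnockOut DMEM with serum replacement, Noggin and SB431542, which block BMP and activin/TGF-β signalling. The medium changed with the stage, so the effect of the stage and of the medium (its zinc and serum replacement included) cannot be told apart. HAR123-KO, cHAR123 and mHAR123 cells had all been edited, so editing and the sequence at HAR123 cannot be told apart in comparisons with hHAR123. The study used 2 clones per genotype, hHAR123 included. The clone behind each library is not given in the sources used here, so p-values measure the spread between these libraries only. HAR123 is no gene, and the deletion cannot be checked in the counts.

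Total counts were 23334732 to 35198684 per library in hESCs and 21022748 to 25978892 in neuroectoderm, and no library stood apart from its condition. As sums, the stage markers fitted the labels of all genotypes: the summed level of 8 pluripotency genes was 6713 to 7228 CPM, counts per 1000000 counts of the library, in hESCs and 1826 to 2509 CPM in neuroectoderm, and that of 8 neuroectoderm genes 41.5 to 55.6 and 789 to 1721 CPM. Not every pluripotency gene followed the sum. From hESCs to neuroectoderm, mean SOX2 rose in hHAR123 (206 to 542 CPM), cHAR123 (199 to 484) and mHAR123 (212 to 517). It fell in HAR123-KO (204 to 158). LIN28A made up most of the neuroectoderm sum, at 1341 to 1555 CPM after 1926 to 2052 in hESCs (group means). The neuroectoderm libraries labelled cHAR123 and mHAR123 go against 1 check: base means listed under cHAR123 in the differential expression tables were matched within 0.1% by the columns labelled mHAR123 for 117 of 117 genes, and those listed under mHAR123 by the columns labelled cHAR123 for 114 of 114. In hESCs the tables and the columns carried the same labels (87 of 87 and 143 of 143 genes). Neuroectoderm results for these 2 genotypes are therefore given for the libraries as labelled, and which labels are right was not tested.

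The 9 genes lie within 95123 bases of chromosome 16 (GRCh38), from MT3 at the left end to MT1X at the right. MT3 (ENSG00000087250) spans chr16:56589074-56591088, MT2A (ENSG00000125148) chr16:56608584-56609497, MT1E (ENSG00000169715) chr16:56625475-56627112, MT1M (ENSG00000205364) chr16:56632659-56633981 and MT1A (ENSG00000205362) chr16:56638666-56640087. MT1F (ENSG00000198417) spans chr16:56657731-56660698, MT1G (ENSG00000125144) chr16:56666730-56668065, MT1H (ENSG00000205358) chr16:56669814-56671129 and MT1X (ENSG00000187193) chr16:56682470-56684196. All are on the plus strand except MT1G, which points away from MT1H. HAR123 itself lies on another chromosome, 17, in SMG6.

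The promoters of MT1H, MT1X and MT2A are shown, the 3 of the 9 members for which promoter entries were used. In hESCs MT1H had the largest differences from hHAR123, in comparisons that chose it or share libraries with that choice. MT1X and MT2A had the smallest among the fitted members. Between mHAR123 and cHAR123 hESCs, MT1G (log2 fold change 0.97) and MT1E (0.84) differed more than MT1H (0.80). Each line gives the 250 bases upstream of the annotated start, 5′ to 3′ on the plus strand (RefSeq, GRCh38.p14). Capitals mark the metal response element cores TGCACNC and TGCGCNC on either strand.
MT1H, chr16:56669564-56669813: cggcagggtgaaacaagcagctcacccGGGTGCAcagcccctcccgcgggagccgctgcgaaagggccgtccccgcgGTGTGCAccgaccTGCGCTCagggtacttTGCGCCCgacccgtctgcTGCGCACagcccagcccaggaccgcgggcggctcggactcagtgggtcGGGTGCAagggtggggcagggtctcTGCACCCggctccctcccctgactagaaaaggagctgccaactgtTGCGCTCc
MT1X, chr16:56682220-56682469: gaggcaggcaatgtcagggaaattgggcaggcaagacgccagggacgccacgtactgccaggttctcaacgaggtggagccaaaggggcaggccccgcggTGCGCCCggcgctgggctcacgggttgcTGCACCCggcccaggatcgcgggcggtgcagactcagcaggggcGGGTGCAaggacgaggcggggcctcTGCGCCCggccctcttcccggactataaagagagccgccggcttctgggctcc
MT2A, chr16:56608334-56608583: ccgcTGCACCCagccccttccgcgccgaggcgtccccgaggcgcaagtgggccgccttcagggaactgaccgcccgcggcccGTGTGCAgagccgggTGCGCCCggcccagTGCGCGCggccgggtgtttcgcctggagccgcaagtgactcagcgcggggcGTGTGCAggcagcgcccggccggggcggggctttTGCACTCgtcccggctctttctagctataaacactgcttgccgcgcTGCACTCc
MT1H held 8 cores, MT2A 7 and MT1X 4, and no core overlapped another. Of 35116 promoter windows of the same length, 24.8% held at least 1 core, 0.370% at least 4, 0.0313% at least 7 and 0.0171% at least 8. A core lay 53 bases before the start of MT1H and MT1X and 54 bases before that of MT2A, and MT1H and MT2A both had another at 8 bases. These are letter matches, not measured binding.

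Reads could be divided among copies, and this was measured on the annotated transcripts. With stretches of 50 bases, 18.7% of those of MT1X, 18.2% of MT1M, 16.4% of MT1G, 15.8% of MT1H, 7.10% of MT1E, 5.76% of MT1A, 4.48% of MT2A, 1.24% of MT1F and none of MT3 also occurred in another gene. With stretches of 100 bases, close to the length of a read, only MT1H (1.39%, shared with the copy MT1HL1 on chromosome 1) and MT1X (11.6%, shared with ENSG00000259827, which overlaps it by 321 exon bases on the same strand) retained any. ENSG00000259827 had 0 counts in all 24 libraries. How reads matching several genes were counted is not given in the sources used here, so levels of MT1X, MT1M, MT1G and MT1H are less certain than those of MT1F and MT3. A further 11 family members and pseudogenes were almost silent, from 0 (MT4, MTL3P) to 94 counts (MT1XP1) over the 24 libraries.

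In hESCs every well counted metallothionein was lowest in hHAR123, intermediate in HAR123-KO and cHAR123, and highest in mHAR123. For MT1X, HAR123-KO (10.0 CPM) lay about as close to mHAR123 (11.2 CPM) as to cHAR123 (8.95 CPM). The summed level of the 9 genes was 12.8 ± 0.154 CPM in hHAR123, 29.0 ± 0.991 in cHAR123, 29.9 ± 2.29 in HAR123-KO and 46.8 ± 2.0 in mHAR123 (SD, n = 3). The libraries of cHAR123 and HAR123-KO overlapped, and the other neighbours in this order did not. In bulk RNA a change in how many cells use a gene and a change in RNA per cell cannot be told apart.

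**Figure D1:**
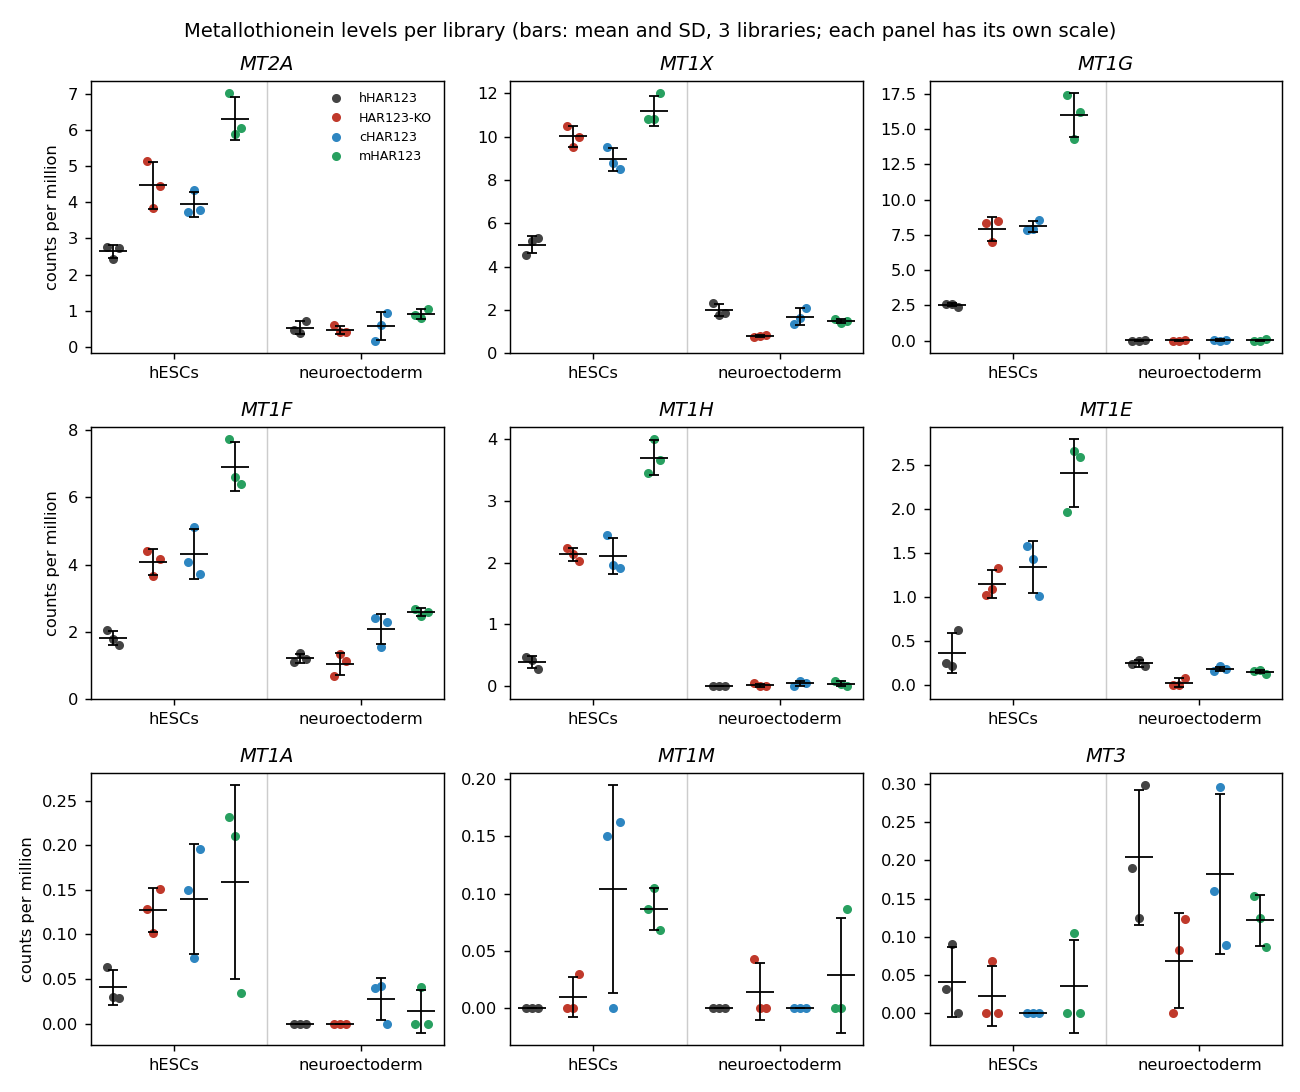
Level of each of the 9 metallothionein genes in CPM (vertical axis, one scale per panel) in each of 24 libraries, by stage and genotype (colour); points are libraries, long bars the mean and whiskers the SD of 3 libraries. In hESCs the hHAR123 libraries are lowest and the mHAR123 libraries highest in the panels of MT2A, MT1X, MT1G, MT1F, MT1H and MT1E, and in neuroectoderm MT1G and MT1H are near 0 in every genotype.

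MT1H, the member with the largest difference from hHAR123, had 15, 14 and 10 counts in the hHAR123 hESC libraries. HAR123-KO libraries had 52, 63 and 67 counts, cHAR123 libraries 65, 53 and 59, and mHAR123 libraries 119, 114 and 107. In CPM this was 0.393 ± 0.0978 in hHAR123, 2.13 ± 0.0996 in HAR123-KO, 2.11 ± 0.290 in cHAR123 and 3.70 ± 0.280 in mHAR123 (SD, n = 3). Every edited library was above every hHAR123 library, while HAR123-KO and cHAR123 overlapped. The log2 fold change over hHAR123 was 2.41 (SE 0.25) in HAR123-KO, 2.39 (SE 0.25) in cHAR123 and 3.19 (SE 0.21) in mHAR123.

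MT1G, which encodes an MT1 isoform on the opposite strand beside MT1H, showed the same order at a higher level. It had 82, 86 and 85 counts in hHAR123, 195, 205 and 279 in HAR123-KO, 209, 214 and 262 in cHAR123, and 599, 407 and 473 in mHAR123. Its log2 fold change over hHAR123 was 1.63 (SE 0.12) in HAR123-KO, 1.65 (SE 0.11) in cHAR123 and 2.62 (SE 0.10) in mHAR123. Per exon length MT1G was the highest member in all 4 genotypes, from 3.37 ± 0.134 RPKM (CPM per kilobase of exon) in hHAR123 to 21.2 ± 2.06 in mHAR123 (SD, n = 3). In hHAR123 it stood close to MT1X (2.90 ± 0.238 RPKM) and MT2A (2.89 ± 0.188 RPKM), and in mHAR123 its lead over MT2A (6.92 ± 0.663 RPKM) and MT1X (6.50 ± 0.389 RPKM) was much wider. This ranking depends on the annotated exon lengths, 751 bases for MT1G and 1727 for MT1X. By CPM, MT1X was above MT1G in hHAR123 (5.01 against 2.53), HAR123-KO (10.0 against 7.93) and cHAR123 (8.95 against 8.10). In mHAR123 MT1G was above MT1X (15.9 against 11.2 CPM).

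MT1E, another MT1 isoform, had 8, 7 and 22 counts in hHAR123, 24, 32 and 44 in HAR123-KO, 42, 39 and 31 in cHAR123, and 68, 76 and 76 in mHAR123. One hHAR123 library was well above the other two but still below every edited library in CPM. The log2 fold change over hHAR123 was 1.63 (SE 0.32) in HAR123-KO, 1.81 (SE 0.31) in cHAR123 and 2.64 (SE 0.26) in mHAR123, and without hHAR123 replicate 3 these were 2.28, 2.47 and 3.31.

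MT1F had 65, 59 and 57 counts in hHAR123, 103, 108 and 137 in HAR123-KO, 109, 139 and 114 in cHAR123, and 267, 188 and 187 in mHAR123. The log2 fold change over hHAR123 was 1.15 (SE 0.15), 1.22 (SE 0.15) and 1.90 (SE 0.13) in these 3 genotypes. No edited library overlapped hHAR123. MT1F is the MT1 gene with the smallest share of its stretches of 50 bases in another gene (1.24%).

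MT1X and MT2A, the broadly used members, differed least from hHAR123. MT1X had 144, 172 and 187 counts in hHAR123, 246, 280 and 330 in HAR123-KO, 254, 238 and 261 in cHAR123, and 374, 308 and 351 in mHAR123. MT2A had 87, 81 and 96 counts in hHAR123, 120, 113 and 147 in HAR123-KO, 99, 118 and 116 in cHAR123, and 242, 168 and 177 in mHAR123. In CPM, no edited library of either gene overlapped the hHAR123 libraries. The log2 fold change of MT1X over hHAR123 was 0.97 (SE 0.09) in HAR123-KO, 0.80 (SE 0.09) in cHAR123 and 1.12 (SE 0.09) in mHAR123. That of MT2A was 0.73 (SE 0.13), 0.55 (SE 0.13) and 1.23 (SE 0.12).

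**Figure D2:**
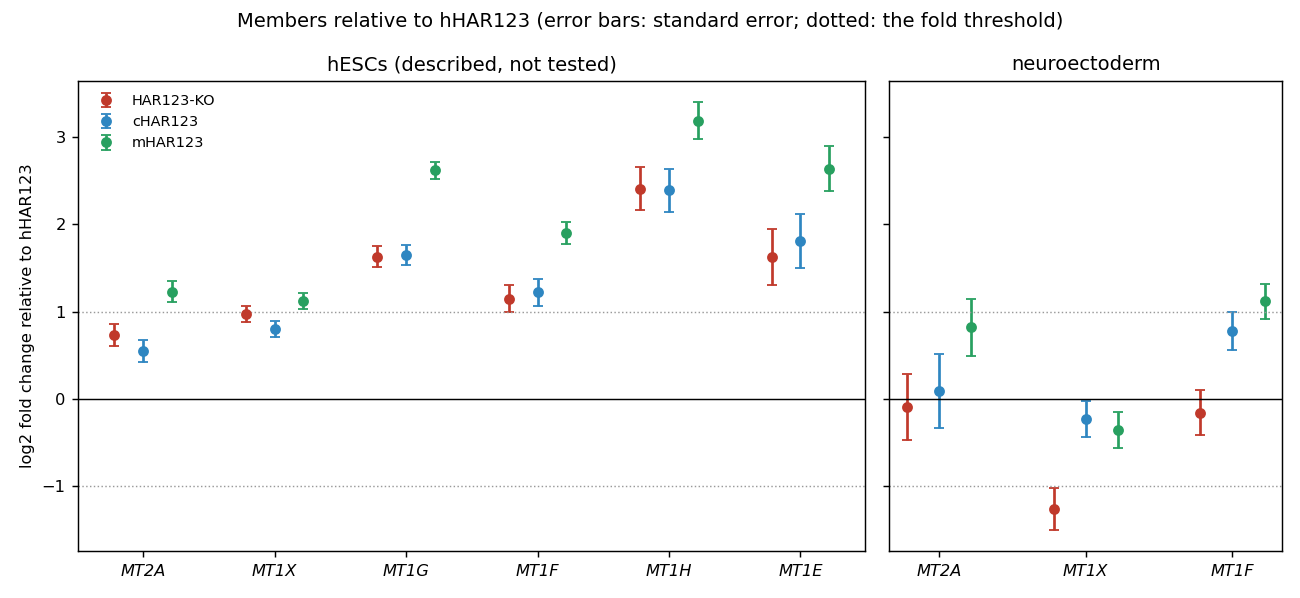
Log2 fold change relative to hHAR123 (vertical axis, edgeR) of the members that passed the filter on low counts, in hESCs (left, described and not tested) and neuroectoderm (right), with HAR123-KO, cHAR123 and mHAR123 in colour; whiskers are standard errors and dotted lines the fold threshold. All hESC points lie above 0, from 0.55 to 3.19. In neuroectoderm MT1X lies below 0 and MT1F above 0 under both replacement labels, but of these only MT1F under the mHAR123 label was called.

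The 3 remaining members were too low to fit. MT1A had 2, 1 and 1 counts in hHAR123 and 1 to 8 counts in the edited libraries. MT1M had none in hHAR123 and 1 count in the 3 HAR123-KO libraries together, against 9 in cHAR123 and 8 in mHAR123, which is at least 3.56-fold and at least 2.89-fold higher than a hHAR123 group floor of 3 counts. MT3 had 4, 2, 0 and 3 counts over the libraries of hHAR123, HAR123-KO, cHAR123 and mHAR123, with no difference detectable at this depth. These intervals and floors cover counting error only.

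Counted over all 9 members, 7 had every HAR123-KO library above every hHAR123 library (all but MT1M and MT3), against 18.9% of all genes tested. The same 7 had no overlap in cHAR123, where the share of all genes was 22.8%. In mHAR123, 7 had no overlap (all but MT1A and MT3), against 25.5%. The choice of MT1H used the first of these comparisons and the 3 share the hHAR123 libraries, so nothing is read from these counts.

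The make-up of the family differed with its level. MT1H made up 3.07 ± 0.793% of the summed metallothionein CPM in hHAR123 and 7.15 ± 0.606% in HAR123-KO, 7.26 ± 0.888% in cHAR123 and 7.94 ± 0.945% in mHAR123 (SD, n = 3). MT1G made up 19.7 ± 1.01% in hHAR123 and 34.0 ± 1.88% in mHAR123. MT1X made up 39.0 ± 2.95% in hHAR123 and 24 ± 1.65% in mHAR123. The share of MT1F stayed between 13.6 ± 0.235% and 14.8 ± 2.15% in the 4 genotypes.

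**Figure D3:**
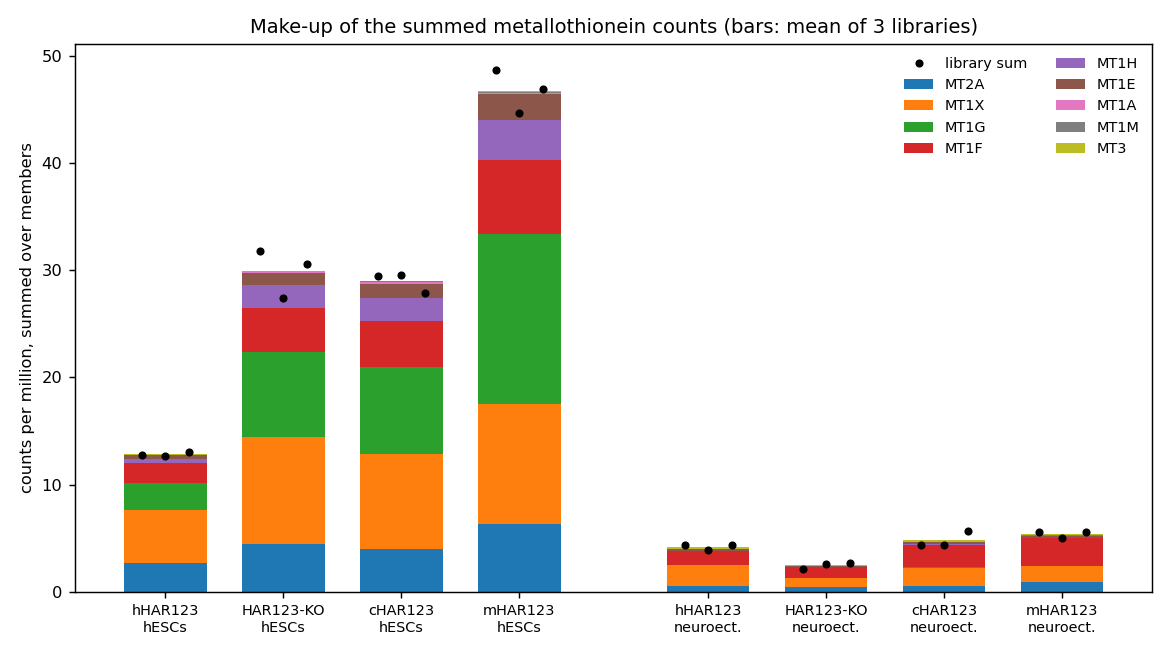
Mean CPM of each member (coloured parts of the bars) in 4 genotypes and 2 stages, stacked to the family sum, with the sum in each of the 3 libraries as black points; the vertical axis starts at 0. The hESC bars reach 12.8 CPM in hHAR123 and 46.8 CPM in mHAR123, and the neuroectoderm bars 2.46 to 5.38 CPM.

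Along the cluster, the sizes of the differences from hHAR123 in hESCs did not run in 1 direction. MT2A and MT1X, 73886 bases apart by their first annotated bases, had the smallest log2 fold changes, and MT1E, MT1G and MT1H, which lie between them, the largest. Among 10 flanking genes of the cluster, 8 were high enough to test between mHAR123 and cHAR123 hESCs and none was called. In that comparison 0 of the 6 fitted members and 0.158% of all genes were called, so it cannot tell the neighbours from the members. NUP93, a nuclear pore gene beside the cluster, was at 136 to 141 CPM (group means) in the 4 genotypes of hESCs.

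**Figure D4:**
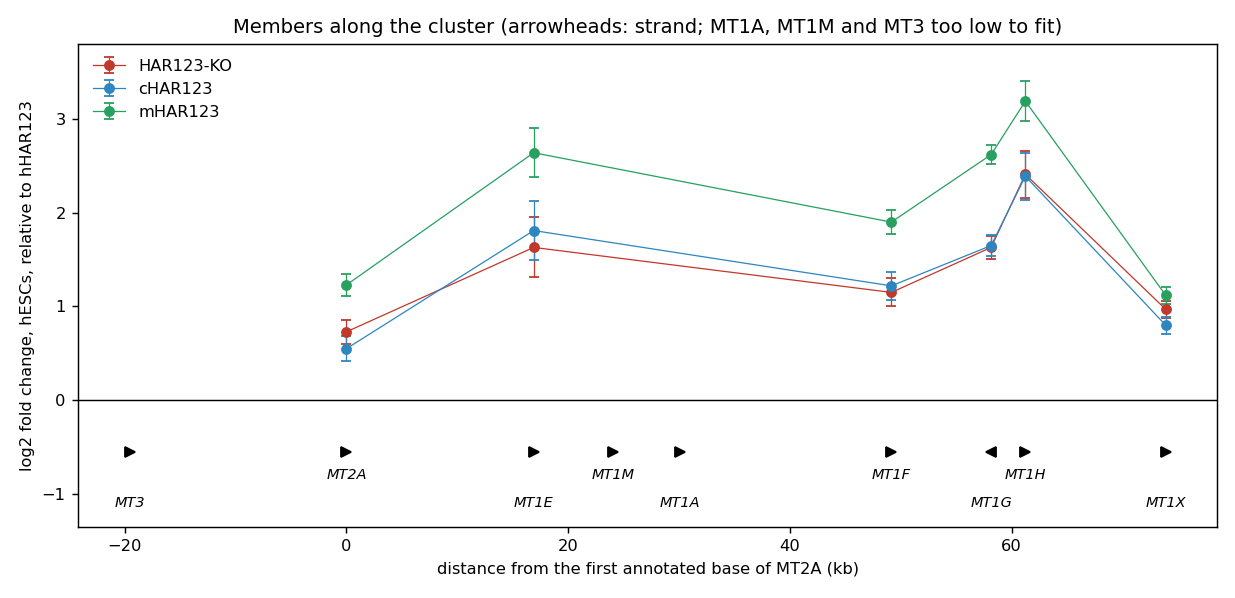
Log2 fold change relative to hHAR123 in hESCs (vertical axis, whiskers SE, described and not tested) against distance from the first annotated base of MT2A in kilobases (horizontal axis), for HAR123-KO, cHAR123 and mHAR123; arrowheads show each gene's strand. The highest point in each genotype is MT1H, at 2.41, 2.39 and 3.19, and MT2A and MT1X at the ends of the fitted range are lowest.

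Between the 2 replacement genotypes, whose hESC libraries took no part in the choice of the genes, mHAR123 was higher than cHAR123 for every fitted member, but by less than the fold threshold. Of the 6 members that passed the filter, 0 were called at an adjusted p under 0.01 with an absolute log2 fold change over 1, against 0.158% of all genes tested. MT1G was 0.97 higher on the log2 scale (SE 0.08, adjusted p = 3.93e-13 by edgeR's quasi-likelihood test) and without mHAR123 replicate 2 it passed the fold threshold at 1.04, and without cHAR123 replicate 3 at 1.02. The other differences were 0.84 (SE 0.19, edgeR adjusted p = 0.0086) for MT1E, 0.80 (SE 0.15, 0.000443) for MT1H, 0.68 (SE 0.12, 9.66e-05) for MT1F and 0.67 (SE 0.11, 9.66e-05) for MT2A. MT1X differed by 0.32 (SE 0.08, edgeR adjusted p = 0.0281). The median over the 6 was 0.74, and 0.00 over all genes tested.

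Against HAR123-KO, described only, cHAR123 differed by -0.17 to 0.19 on the log2 scale over the 6 genes. The 95% interval of the difference was -0.36 to 0.32 for MT1H and -0.15 to 0.22 for MT1G. In mHAR123 the difference from HAR123-KO was 1.02 (SE 0.19) for MT1E, 1.0 (SE 0.09) for MT1G, 0.78 (SE 0.14) for MT1H, 0.76 (SE 0.11) for MT1F, 0.50 (SE 0.11) for MT2A and 0.15 (SE 0.08) for MT1X.

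MTF1, the zinc sensor, was at 27.5 ± 1.67 CPM in hHAR123 hESCs and 25.9 ± 1.77 in mHAR123, and SLC30A1, the zinc exporter that MTF1 also controls, at 32.0 ± 2.55 and 35.1 ± 1.66 (SD, n = 3). For both genes the libraries of these genotypes overlapped. Between mHAR123 and cHAR123 hESCs, no gene was called among 8 tested genes of zinc sensing and export, 11 of copper handling, 12 of the oxidative stress response and 8 of the glucocorticoid response. Only 0.158% of all genes and 0 of the 6 fitted members were called there, so this cannot tell these lists from the members. In zinc import 1 of 11 was called: SLC39A4, the zinc importer of the gut, rose by 1.40 (SE 0.14, edgeR adjusted p = 2.48e-10). It was at 5.53 ± 0.0828 CPM in mHAR123 and 2.08 ± 0.616 in cHAR123, with hHAR123 at 2.86 ± 0.394 and HAR123-KO at 5.25 ± 0.677 (SD, n = 3). NR3C1, the glucocorticoid receptor, was at 12.4 ± 1.20 CPM in hHAR123 and 7.58 to 8.76 CPM (group means) in the edited hESCs.

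Markers of other cell types moved with the family in hESCs as a sum, but not each by itself. Their summed level over 11 genes was 181 to 189 CPM in hHAR123, 240 to 244 in HAR123-KO, 255 to 261 in cHAR123 and 275 to 282 in mHAR123. Of the 11, 5 had a higher mean in each edited genotype than in hHAR123, and most of the sum came from the collagen genes COL1A1 (88.2, 140, 136 and 156 CPM) and COL1A2 (90.4, 95.4, 117 and 116 CPM). FOXA2, an endoderm marker, went the other way, with 1.71 CPM in hHAR123 and 1.15, 1.12 and 1.03 CPM in HAR123-KO, cHAR123 and mHAR123. The endoderm marker SOX17 and the surface ectoderm marker KRT5 had no count in hHAR123 and at most 0.0250 and 0.0101 CPM (group means) elsewhere. Their part in the metallothionein differences was not tested.

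During differentiation MT1F, MT1X and MT2A fell in cHAR123 and mHAR123, whose libraries were not used in the choice of the genes, and MT1G and MT1H were left with at most 3 counts per genotype. MT1F, MT1X and MT2A also passed the filter on low counts within neuroectoderm, and each was called lower there in both genotypes, where 42.7% and 41.9% of all genes were called in either direction. MT1G, MT1H and MT1E entered this fit only through their hESC counts and could not have been called higher, so they are given by their counts with no test.

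MT1G had 2, 0 and 1 counts in the neuroectoderm libraries labelled cHAR123 and 0, 0 and 2 in those labelled mHAR123, after 685 and 1479 counts over the hESC libraries. The summed counts give a ratio of hESC to neuroectoderm CPM of 192 (95% exact interval 65.4 to 933) in cHAR123 and 587 (162 to 4854) in mHAR123. In hHAR123 and HAR123-KO neuroectoderm it had 1 count each over the 3 libraries.

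MT1H had 0, 2 and 1 counts in neuroectoderm labelled cHAR123, 2, 1 and 0 in mHAR123, 1, 0 and 0 in HAR123-KO and none in hHAR123. The genotype difference seen in hESCs could therefore not be detected in neuroectoderm at this depth. The ratio of hESC to neuroectoderm CPM from the summed counts was 49.6 (95% exact counting interval 16.7 to 243) in cHAR123 and 90.0 (30.5 to 439) in mHAR123. In hHAR123 it was at least 8.92-fold higher in hESCs, against a floor of 3 counts in the neuroectoderm group.

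MT1E kept 13 counts in neuroectoderm labelled cHAR123 and 11 under the mHAR123 label, after 112 and 220 in hESCs, a CPM ratio of 7.25 (95% exact counting interval 4.07 to 14.0) and 15.9 (8.70 to 32.3). MT2A changed by -3.04 on the log2 scale in cHAR123 (SE 0.24, edgeR adjusted p = 6.4e-15) and -2.98 in mHAR123 (SE 0.17, 5.76e-24), and MT1X by -2.61 (SE 0.14, 3.61e-21) and -3.07 (SE 0.13, 3.17e-30). MT1F fell by 1.25 on the log2 scale in cHAR123 (SE 0.16, edgeR adjusted p = 5.4e-09) and by 1.59 in mHAR123 (SE 0.13, 7.16e-17). With the neuroectoderm libraries of these 2 genotypes exchanged, MT1F changed by -0.90 in cHAR123 and was no longer called, while MT1X and MT2A remained called in both genotypes.

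In hHAR123 and HAR123-KO, described only, MT1X, MT1F and MT2A were also lower in neuroectoderm. MT1X differed by -1.63 (SE 0.15) in hHAR123 and -3.84 (SE 0.15) in HAR123-KO, and MT1F by -0.86 (SE 0.21) and -2.13 (SE 0.19). MT2A differed by -2.61 (SE 0.24) and -3.42 (SE 0.22). For MT1E in hHAR123 the libraries of the stages overlapped, and the ratio of hESC to neuroectoderm CPM was 1.49 (95% exact counting interval 0.820 to 2.83, 37 against 17 counts). The summed CPM of the 9 genes was 3.06 times higher in hESCs than in neuroectoderm in hHAR123 (95% exact counting interval 2.69 to 3.49) and 12.1 times in HAR123-KO (10.4 to 14.2). In cHAR123 it was 6.04 times (5.39 to 6.79) and in mHAR123 8.72 times (7.86 to 9.69) higher. These ratios use library totals, unlike the log2 fold changes. With library totals only, the log2 changes in hHAR123 were smaller in size, -1.34 for MT1X and -0.56 for MT1F.

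MT3, the brain member, went the other way at very low counts. It had 4, 3 and 7 counts in hHAR123 neuroectoderm, 0, 2 and 3 in HAR123-KO, 4, 7 and 2 in libraries labelled cHAR123 and 4, 3 and 2 in those labelled mHAR123. The ratio of neuroectoderm to hESC CPM was 5.10 in hHAR123 (95% exact counting interval 1.60 to 21.3, 14 against 4 counts) and at least 5.15 in cHAR123 (13 counts against a floor of 3). In mHAR123 it was 3.78 (0.943 to 21.7) and in HAR123-KO 2.99 (0.489 to 31.4), both with intervals that include equal levels. No neuroectoderm genotype differed from its neighbour in the order of MT3 levels beyond the spread of its libraries. The ends of that order, HAR123-KO (0 to 0.123 CPM) and hHAR123 (0.124 to 0.299 CPM), did not overlap, with a ratio of hHAR123 to HAR123-KO of 2.93 (95% exact counting interval 0.996 to 10.4).

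**Figure D5:**
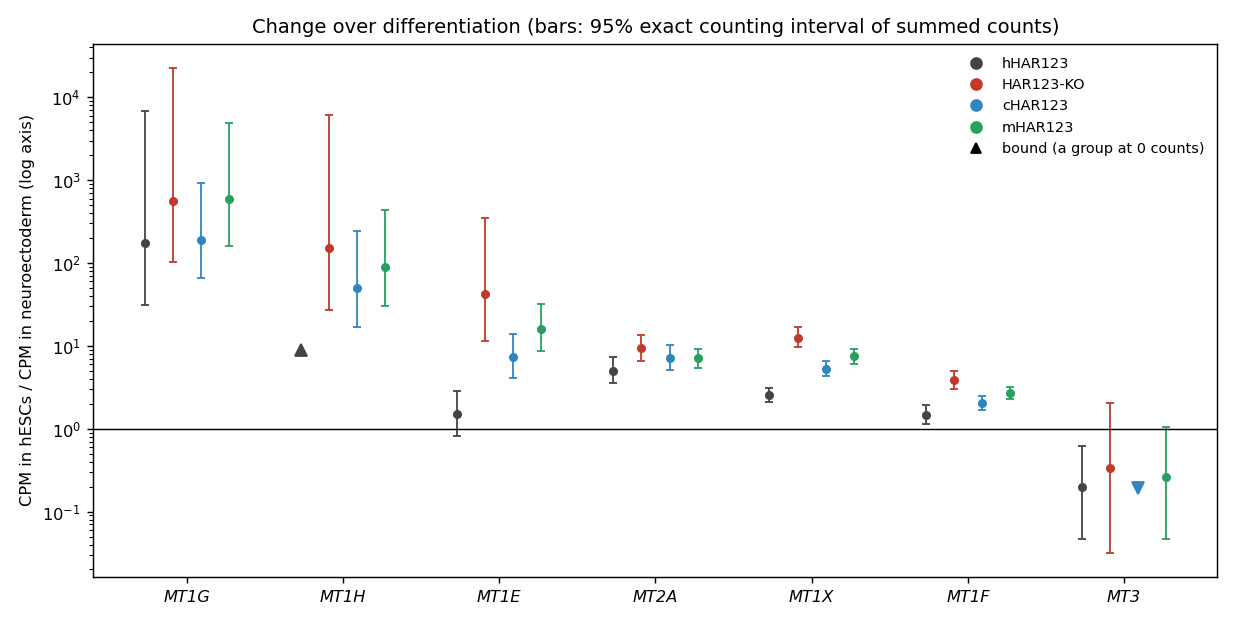
Ratio of the summed CPM in hESCs to that in neuroectoderm (vertical log axis) for 7 members in 4 genotypes (colour), with 95% exact counting intervals; triangles are bounds where one of the groups had no count, pointing up for a lower bound of the ratio and down for an upper bound. MT1G and MT1H lie highest, MT1F closest to 1 among the genes that are lower in neuroectoderm in each genotype, and MT3 below 1.

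Genes of related pathways changed with the stage in both directions, as did 42.7% of all genes in cHAR123 and 41.9% in mHAR123. Called lower were 4576 of 22049 tested genes in cHAR123 and 4585 of 22173 in mHAR123. In the oxidative stress response 8 of 12 tested genes fell in cHAR123 and 7 of 12 in mHAR123. The quinone reductase NQO1 led with -3.22 (SE 0.09, edgeR adjusted p = 8.43e-32) and -3.15 (SE 0.09, 1.58e-39). GCLM, the modifier subunit of the enzyme that makes the glutathione precursor, followed with -2.35 and -2.26. In zinc import 4 of 12 fell in each genotype, with SLC39A14, a zinc and iron importer, at -3.15 (SE 0.03, edgeR adjusted p = 4.22e-46) and -3.31 (SE 0.04, 4.34e-60). Among those in cHAR123 was SLC39A4 (-2.01). With the cHAR123 and mHAR123 neuroectoderm libraries exchanged, SLC39A4 was at -0.28 in cHAR123 and no longer called (edgeR adjusted p = 0.19). In copper handling 5 fell and 1 rose of 11 in each, with SCO1 and SCO2, copper chaperones of cytochrome oxidase, at -1.36 and -1.29 in cHAR123. In zinc sensing and export 2 rose and 1 fell of 9: SLC30A4 rose by 5.56 and 3.88, and SLC30A3, the synaptic vesicle transporter, changed by -3.88 and -4.53.

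In the glucocorticoid response 1 rose and 2 fell of 8 in each genotype. NR3C1 changed by -3.98 (SE 0.18, edgeR adjusted p = 2.59e-23) in cHAR123 and -4.14 (SE 0.18, 3.38e-29) in mHAR123. ZBTB16, a glucocorticoid-induced gene that neural progenitors also use, rose by 7.97 and 7.44. Of the 8 tested neighbours of the cluster, BBS2 rose (1.85 and 1.76) and NLRC5 fell (-2.73 and -2.64), and the other 6 were not called. The share of each list that was called can be read against the 42.7% and 41.9% of all genes.

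In neuroectoderm the genotypes came in another order than in hESCs. The summed level of the 9 genes was 2.46 ± 0.306 CPM in HAR123-KO, 4.20 ± 0.241 in hHAR123, 4.82 ± 0.760 in libraries labelled cHAR123, and 5.38 ± 0.283 under the mHAR123 label (SD, n = 3). HAR123-KO, above hHAR123 in hESCs, was lowest here, with all libraries below those of hHAR123. The libraries labelled cHAR123 and mHAR123 overlapped. MT1F and MT1X made up most of the sum, 29.2 ± 4.96% and 47.4 ± 5.67% in hHAR123 and 42.2 ± 9.10% and 32.4 ± 2.27% in HAR123-KO (SD, n = 3). Of the 9 members 3 (MT1F, MT1X and MT2A) passed the filter on low counts.

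MT1X had 49, 43 and 44 counts in hHAR123, 17, 19 and 21 in HAR123-KO, 34, 38 and 47 in libraries labelled cHAR123 and 41, 34 and 35 in those labelled mHAR123. Every HAR123-KO library was below all others. It fell in HAR123-KO against hHAR123 by 1.26 on the log2 scale (SE 0.24, edgeR adjusted p = 1.57e-05), the only member called of the 3, where 9.45% of all genes were called. MT1F differed by -0.16 (95% interval -0.67 to 0.36) and MT2A by -0.09 (-0.85 to 0.66), which does not show equal levels. Against hHAR123, MT1X was not called in libraries labelled cHAR123 (-0.23, 95% interval -0.63 to 0.18) or mHAR123 (-0.36, -0.77 to 0.05).

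MT1F had 23, 33 and 28 counts in hHAR123, 16, 32 and 28 in HAR123-KO, 60, 37 and 51 in libraries labelled cHAR123 and 70, 60 and 60 in those labelled mHAR123. hHAR123 and HAR123-KO overlapped, and both other genotypes lay above hHAR123 in every library. In libraries labelled mHAR123 it rose against hHAR123 by 1.12 (SE 0.20, edgeR adjusted p = 5.33e-05), 1 of 3 members called where 1.03% of all genes were called. In those labelled cHAR123 it was 0.78 higher (SE 0.22, edgeR adjusted p = 0.0104), so 0 of 3 members were called, beside 0.978% of all genes.

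Against HAR123-KO, MT1X rose in the libraries labelled cHAR123 by 1.06 (SE 0.25, edgeR adjusted p = 0.000327), 1 of 3 members called where 7.61% of all genes were called. MT1F was 0.96 higher there (SE 0.23, edgeR adjusted p = 0.000402), just under the fold threshold. Without cHAR123 replicate 3, MT1X was 0.88 higher and 0 members were called, while without cHAR123 replicate 2, HAR123-KO replicate 2 or HAR123-KO replicate 3 both genes were called. In libraries labelled mHAR123, MT1F rose by 1.30 (SE 0.21, edgeR adjusted p = 1.59e-06) and MT1X was 0.93 higher (SE 0.25, 0.00212), again 1 of 3 called, where 7.33% of all genes were called. Between the libraries labelled mHAR123 and cHAR123, 0 of 3 were called, with 0.261% of all genes called, and MT1F differed by 0.34 (SE 0.18, edgeR adjusted p = 0.315).

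MT2A had 10, 9 and 17 counts in hHAR123, 14, 10 and 10 in HAR123-KO, 4, 14 and 21 in libraries labelled cHAR123 and 23, 19 and 24 in those labelled mHAR123. The cHAR123 libraries spread widely, from 0.160 to 0.942 CPM. No difference of MT2A was called, the largest being 0.93 in mHAR123 over HAR123-KO (SE 0.33, edgeR adjusted p = 0.0173).

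MT1E was too low to fit but was nearly lost in one genotype. It had 5, 7 and 5 counts in hHAR123, 0, 0 and 2 in HAR123-KO, 4, 5 and 4 in libraries labelled cHAR123 and 4, 4 and 3 in those labelled mHAR123. The summed counts were 17 in hHAR123 and 2 in HAR123-KO, a CPM ratio of 8.88 (95% exact counting interval 2.11 to 79.3). All HAR123-KO libraries were below all libraries of the other 3 genotypes. MT1A and MT1M had at most 2 counts in any neuroectoderm library.

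In HAR123-KO neuroectoderm some genes of the metal and stress lists were called against hHAR123, to be read beside the 9.45% of all genes. The zinc and manganese exporter SLC30A10 rose by 2.90 (SE 0.14, edgeR adjusted p = 1.59e-23), 1 of 8 genes of zinc sensing and export. In zinc import 2 of 12 rose, SLC39A8 by 1.84 (SE 0.09, edgeR adjusted p = 4.36e-24) and SLC39A4 by 1.30 (SE 0.26, 3.76e-05). In the oxidative stress response 2 of 12 rose, the cystine importer SLC7A11 by 2.89 (SE 0.05, edgeR adjusted p = 5.47e-45) and NQO1 by 1.44 (SE 0.12, 8.3e-15). In the glucocorticoid response 2 of 8 fell, SGK1 by 1.07 and DUSP1, a phosphatase, by 1.01. Without HAR123-KO replicate 1 SGK1 was at -0.91, and without hHAR123 replicate 2 DUSP1 at -0.98, both short of the fold threshold. In copper handling and among the neighbours of the cluster none of 11 and 8 was called. Against hHAR123, SLC39A4 was also called higher in libraries labelled mHAR123 (1.47, SE 0.25, edgeR adjusted p = 2.23e-05), where 1.03% of all genes were called. SLC30A10 was called higher in those labelled cHAR123 (1.06, SE 0.20, edgeR adjusted p = 0.000128), beside 0.978% of all genes. Without cHAR123 replicate 2 SLC30A10 was at 0.93 there, and without hHAR123 replicate 2 at 0.97, both short of the fold threshold. MTF1 was at 34.9 ± 3.12 CPM in hHAR123 and 32.1 ± 0.189 in HAR123-KO, and SLC30A1 at 30.3 ± 2.82 and 22.6 ± 1.22 (SD, n = 3). The libraries of these genotypes overlapped for MTF1. For SLC30A1, which was not called, they did not (28.2 to 33.5 and 21.2 to 23.4 CPM). The share of all genes without overlap was not counted here.

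Cell type markers also moved in HAR123-KO neuroectoderm. The neuroectoderm genes summed to 789 to 810 CPM against 1686 to 1702 in hHAR123, with 4 of 7 tested genes called lower (HES5 by -3.00, SIX3 by -2.30). The markers of other cell types summed to 938 to 967 CPM against 138 to 142, with 2 of 3 tested genes called higher, SOX10, a neural crest factor, by 4.83 and COL1A2 by 2.88. The third, COL1A1, was at 47.0 CPM in hHAR123 and 39.5 in HAR123-KO, while SOX17 and KRT5 had no count in either. Under the labels cHAR123 and mHAR123 the other markers summed to 184 to 194 and 249 to 258 CPM. Their part in the differences of MT1X, MT1E and MT1F was not tested.

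Genes whose level most closely followed the most counted member of each stage, not the family, were looked for among those with a mean of at least 1 CPM. In hESCs, over 12 libraries and 16497 genes, the genes most like MT1X by Pearson correlation of log2 CPM were the actin regulator COBL (r = 0.986), the stress ligand MICB (0.984) and the long RNA MIR205HG (0.984). The other members reached 0.963 for MT1H, 0.950 for MT1G, 0.920 for MT1F and MT1E and 0.899 for MT2A, but 0.585 for MT1A, 0.491 for MT1M and -0.229 for MT3, which had few counts. In neuroectoderm, over 12 libraries and 17535 genes, ARRDC1 (0.921), TBKBP1 (0.917) and HELZ2 (0.905) were most like MT1F. The other members were between 0.009 (MT1M) and 0.390 (MT1E), with MT1X at 0.387 and MT2A at 0.255. The 12 libraries share 4 genotypes, so these values are a description and carry no p.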

How the data were processed

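Total RNA of 24 libraries was depleted of ribosomal RNA, made into directional libraries and sequenced as paired-end reads by the authors, who aligned the reads to GRCh38 with STAR (version 2.5.2b per the labels) and used featureCounts for gene-level counting. The deposited file holds raw counts, not normalized. Settings for strand and for reads matching several genes are not given in the sources used here. A gene entry broken over 3 lines was dropped, so 61551 genes entered the analysis. In 15709 of these no library had a count. Samples were grouped by genotype and stage from the labels.

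Each pair of groups was fitted alone in R 4.3.3 with edgeR 4.0.16 (filterByExpr, TMM scaling, quasi-likelihood F test, Benjamini-Hochberg over all genes tested). A call needed both an adjusted p below 0.01 and a log2 fold change beyond 1 in size. The fits were tested on simulated data. CPM are counts scaled by the library total and RPKM also by exon length. Ratios of summed counts use library totals without TMM scaling. They carry 95% exact binomial intervals, and zero counts a floor of 3, for counting error only. Every replicate pair differed beyond counting noise (chi-square per degree of freedom 1.39 to 3.82).

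The members, the gene lists and the comparisons were chosen with earlier results of these data known. Named genes were all 9 members, at most the 2 called genes per list and comparison with the largest change and a mean of at least 1 CPM, and the 3 genes most like the most counted member of a stage. MTF1, SLC30A1, NUP93, NR3C1 levels by genotype and the marker levels were named after their values were seen. Alternatives were DESeq2 1.42.0, its size factors, library totals only, no filter, all libraries in 1 fit, a replicate block, a p threshold of 0.05, each library left out, and exchanged neuroectoderm labels.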

Additional observations from a re-analysis of the deposited data

Results flagged for a closer look

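Members whose every library lay on opposite sides of hHAR123 at the 2 stages were singled out. The share of all genes that meet this rule was not counted. The values are differences between the log2 ratio of mean CPM in neuroectoderm and that in hESCs, and they were not tested because the hESC libraries of hHAR123 and HAR123-KO chose the genes. In HAR123-KO, MT1E was higher in hESCs (1.66) and lower in neuroectoderm (-3.18, on 2 against 17 counts), a difference of -4.84, and MT1X was higher in hESCs (1.0) and lower in neuroectoderm (-1.33), a difference of -2.33. In mHAR123, MT1E gave 2.73 and -0.72, a difference of -3.45, and MT1X 1.16 and -0.41, a difference of -1.57. In cHAR123, MT1E gave 1.89 and -0.43, a difference of -2.32. Outside HAR123-KO the neuroectoderm side is uncertain. There MT1X was not called in mHAR123 against hHAR123 (log2 fold change -0.36, edgeR adjusted p = 0.225). For MT1E the CPM ratio to hHAR123 had a 95% exact counting interval of 0.330 to 1.62 in cHAR123 and 0.257 to 1.37 in mHAR123. Both intervals include equal levels. Neuroectoderm libraries of cHAR123 and mHAR123 are taken as labelled, and counts of MT1E there were 0 to 7 per library.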

How the results depend on the processing

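Of the recomputed counts and family sums, 120 stayed within 1.5 times the reported count or within 1 SD of the reported sum, and 7 did not. With each library left out, the count of members called between cHAR123 and HAR123-KO neuroectoderm ranged from 0 to 2 (reported 1), with 0 without cHAR123 replicate 3, and that between mHAR123 and cHAR123 hESCs from 0 to 1 (reported 0). Adding the relatives moved the family sum of hHAR123 hESCs to 13.0 CPM. Small neuroectoderm differences changed sign with a library left out: MT1F in HAR123-KO against hHAR123 ranged from -0.36 to 0.07, MT2A in the same comparison from -0.30 to 0.22, MT2A in cHAR123 against hHAR123 from -0.48 to 0.55 and against HAR123-KO from -0.36 to 0.67, and MT1X in mHAR123 against cHAR123 from -0.28 to 0.05. None of these had been called and the cause was not tested. With library totals only, the median of all genes shifted to 0.25 in the stage change of cHAR123 and 0.20 in that of mHAR123, and the share of calls that were higher rose from 51.4% to 60.7% and from 50.7% to 58.1%, while MT1F, MT1X and MT2A remained called lower in each. DESeq2 gave no adjusted p in neuroectoderm for MT2A in cHAR123 against hHAR123, or for MT1X, MT2A and SLC39A4 in mHAR123 against hHAR123 or cHAR123. MT1E without hHAR123 replicate 3 is given in the report.

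The replicate numbers did not pair the libraries: correlations of same-numbered libraries' deviations were -0.05 to 0.06. With the replicate block the members called numbered 1 in HAR123-KO against hHAR123 neuroectoderm, 0 and 1 in cHAR123 and mHAR123 against hHAR123, 1 and 1 in both against HAR123-KO, 0 between mHAR123 and cHAR123 at either stage, and 6 in each stage change (3 of them fitted only through their hESC counts), as without the block.

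Depth limits MT1A, MT1M, MT3 at both stages and MT1E, MT1G, MT1H in neuroectoderm, where a single count moves the value. Clone identity, the neuroectoderm labels of cHAR123 and mHAR123 and the counting of shared reads bound every result.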
